A study of Mus musculus with 12 samples.

Results

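The carnitine shuttle and the core enzymes of mitochondrial beta-oxidation were followed through 10 genes: Cpt1a, Cpt1b, Cpt2, Slc25a20, Acadl, Acadm, Acadvl, Acads, Hadha and Hadhb. They were found on the array through the accessions of its probes, which gave 12 probes among the 31861 kept and 10 genes among the 25260 genes or unnamed accessions tested. Whole liver of C57BL/6 mice was read on 12 arrays in 4 groups. MycF/F,ERT2-Cre mice, which carry floxed Myc alleles and an inducible Cre recombinase and whose genotype label reads ko, were fed 0.1% Wy-14643 for 2 days (4 arrays) or control diet (4 arrays). MycF/F mice, which carry the floxed alleles without the recombinase and are labelled wt, were fed 0.1% Wy-14643 for 2 days (3 arrays) or control diet (1 array, whose RNA is labelled as pooled). Both genotypes thus carry the floxed Myc alleles. The promoter that drives ERT2-Cre, any tamoxifen, the sex and age of the mice and the identity of the animal behind each array are not stated in the labels, so the p-values measure the spread between these samples, which may be technical.

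Long-chain fatty acids cannot cross the inner mitochondrial membrane as acyl-CoA. Carnitine palmitoyltransferase 1 on the outer membrane (Cpt1a is the liver isoform and Cpt1b the muscle isoform) joins the acyl group to carnitine, the translocase Slc25a20 carries acylcarnitine across the inner membrane, and Cpt2 returns the acyl group to CoA in the matrix. Acyl-CoA dehydrogenases named for the chain they prefer (Acadvl very long, Acadl long, Acadm medium and Acads short) start each turn of the oxidation spiral, and the trifunctional protein made of Hadha and Hadhb carries out the following steps for long chains. Wy-14643 is an agonist of the nuclear receptor PPARalpha, which in rodent liver activates many genes of fatty acid oxidation. The comparisons ask how the diet moves these genes and whether the response differs between the genotypes.

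PPARalpha binds, with its partner RXR, to direct repeats of the hexamer AGGTCA spaced by 1 base, so the sequence upstream of the members was examined because they moved together on the diet. RefSeq windows of 250 bases before the annotated start (build GRCm38.p6) were found for 9 of the 10 members. The window of Cpt1a is an exception in place, since it lies inside the annotated span of the gene, which begins at chr19:3322326. Neither this repeat nor a looser one, with any base at the fourth letter of each hexamer, occurred on either strand in any of the 9 windows (0 of 9 for each). Among all 32851 windows of that length the share was 0.0335% for the strict repeat and 0.338% for the looser one. The single hexamer AGGTCA occurred in 3 of 9 member windows, against 14.0% of all windows, namely in those of Cpt1a (chr19:3323051-3323300, plus strand), Acadm (chr3:153944644-153944893, minus strand) and Acadvl (chr11:70015429-70015678, minus strand). They are printed in the direction of the gene with the hexamer in capitals, where TGACCT is the same hexamer on the other strand.
Cpt1a: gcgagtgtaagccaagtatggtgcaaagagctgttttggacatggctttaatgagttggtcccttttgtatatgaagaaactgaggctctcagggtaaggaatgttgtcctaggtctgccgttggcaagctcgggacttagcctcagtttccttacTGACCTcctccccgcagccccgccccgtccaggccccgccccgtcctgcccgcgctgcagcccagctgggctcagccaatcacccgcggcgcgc
Acadm: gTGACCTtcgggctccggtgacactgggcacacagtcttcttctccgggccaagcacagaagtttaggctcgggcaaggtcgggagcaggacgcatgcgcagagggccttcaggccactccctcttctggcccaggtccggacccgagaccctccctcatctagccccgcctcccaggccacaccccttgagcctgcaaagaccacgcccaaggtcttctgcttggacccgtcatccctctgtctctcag
Acadvl: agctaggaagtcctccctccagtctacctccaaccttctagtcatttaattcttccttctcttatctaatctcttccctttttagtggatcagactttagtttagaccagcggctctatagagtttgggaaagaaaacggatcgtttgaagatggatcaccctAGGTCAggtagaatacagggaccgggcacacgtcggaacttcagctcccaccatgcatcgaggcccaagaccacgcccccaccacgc
The match in Acadm began 249 bases before the annotated gene start and the one in Acadvl 87 bases. The match in Cpt1a began 94 bases before the start used for its window, which is inside the annotated gene. These are matches of letters in a short window and say nothing of binding here or farther away. The E-box CACGTG, the hexamer bound by Myc with Max, occurred in 0 of 9 member windows and in 6.02% of all windows. The GC box GGGCGG occurred in 7 of 9 member windows and in 32.7% of all windows, but the 1 match in the window of Hadha is the same site as 1 of the 2 matches in that of Hadhb.

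Hadha and Hadhb, the subunits of 1 enzyme, are neighbours that start head to head on opposite strands. Their windows share 228 bases, which is the same DNA read in opposite directions, so both genes are shown by the window of Hadhb (chr5:30155003-30155252, plus strand). The window of Slc25a20 (chr9:108661886-108662135, plus strand) is shown as that of a member whose values varied little between arrays of a diet. Neither holds the AGGTCA hexamer, so both stand without capitals.
Hadhb: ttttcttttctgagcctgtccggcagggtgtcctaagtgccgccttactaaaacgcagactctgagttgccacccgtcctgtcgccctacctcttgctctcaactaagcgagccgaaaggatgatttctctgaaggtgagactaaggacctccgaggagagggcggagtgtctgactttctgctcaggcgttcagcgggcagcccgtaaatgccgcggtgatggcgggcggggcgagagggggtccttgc
Slc25a20: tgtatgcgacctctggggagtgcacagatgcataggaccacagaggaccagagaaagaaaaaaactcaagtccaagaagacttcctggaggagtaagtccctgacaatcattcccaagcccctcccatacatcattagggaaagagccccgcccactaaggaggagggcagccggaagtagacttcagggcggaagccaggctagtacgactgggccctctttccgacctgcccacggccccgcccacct

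Levels are log2 ratios of the sample's Cy5 signal to the Cy3 signal of a pooled liver RNA that was the same kind of reference on all 12 arrays, so 0 means as bright as that pool and not as in untreated liver. All 12 member probes were well above background on 12 of 12 arrays and no member spot was saturated. Of the 144 values of member probes 22 were missing, because the scanner software had marked the spot as an outlier, and 15 of these lay on slide 1, 6 on slide 2 and 1 on slide 3. Over all spots the marked share was 5.47% to 8.35% on slide 1 and 0.904% to 1.84% on the other slides. The median Cy5 signal over background was 2.64 to 4.82, and the share of spots well above background was 64.6% to 77.1%. Among MycF/F,ERT2-Cre arrays the Myc probe with 10 spots read -1.20 to -0.96 on Wy-14643, against 0.53 to 0.90 in MycF/F on Wy-14643. On control diet it read -1.06 to -0.22 in MycF/F,ERT2-Cre, against 0.23 in MycF/F, and where this probe lies relative to the floxed part is not stated. A second Myc probe gave a similar difference on Wy-14643 (-1.83, adjusted p = 0.00614 over all kept probes in limma, against -1.85 for the first, adjusted p = 0.00385). The third was not called there (-0.57, limma adjusted p = 0.295), and on control diet it read 0.007 to 0.725 in MycF/F,ERT2-Cre, against 0.579 in MycF/F, so that the genotypes overlapped. The hepatocyte markers Alb, Ttr, Apoa1 and Tat were well above background on all 12 arrays.

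On Wy-14643 most of the set rose in both genotypes, with Cpt1b, Acadm and Acadl at the top in MycF/F,ERT2-Cre and Cpt1a at the bottom in both. Tests come from limma, a linear model with moderated errors fitted over all genes, with Benjamini-Hochberg adjusted p-values. In MycF/F,ERT2-Cre, 9 of 10 members rose at an adjusted p under 0.05, where 8.91% of all 25163 genes tested rose (2242 genes) and 16.3% were called in either direction. Of the 10 members 8 rose at least 2-fold, where 1.43% of all genes did. The median log2 fold change was 1.76 over the members and 0.03 over all genes. In MycF/F 8 of 10 members passed as higher, where 3.34% of 24916 genes rose and 6.56% were called in either direction, and the median log2 fold change was 1.52 over the members and -0.00283 over all genes. Because MycF/F on control diet is 1 pooled array, every p-value for the diet in MycF/F takes its spread from the other groups, and so does any p-value where spots marked as outliers left 1 array in a group. All 8 of those were at least 2-fold, where 1.36% of genes rose that far. In MycF/F,ERT2-Cre every measured Wy-14643 array lay above every measured control array for 10 of 10 members, where 11.6% of all genes did so. Over both genotypes together this held for 9 of 10, where 7.96% of all genes did so, and the exception was Cpt1a. In whole tissue, more RNA per cell and a larger share of the cells that hold it cannot be told apart.

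**Figure D1:**
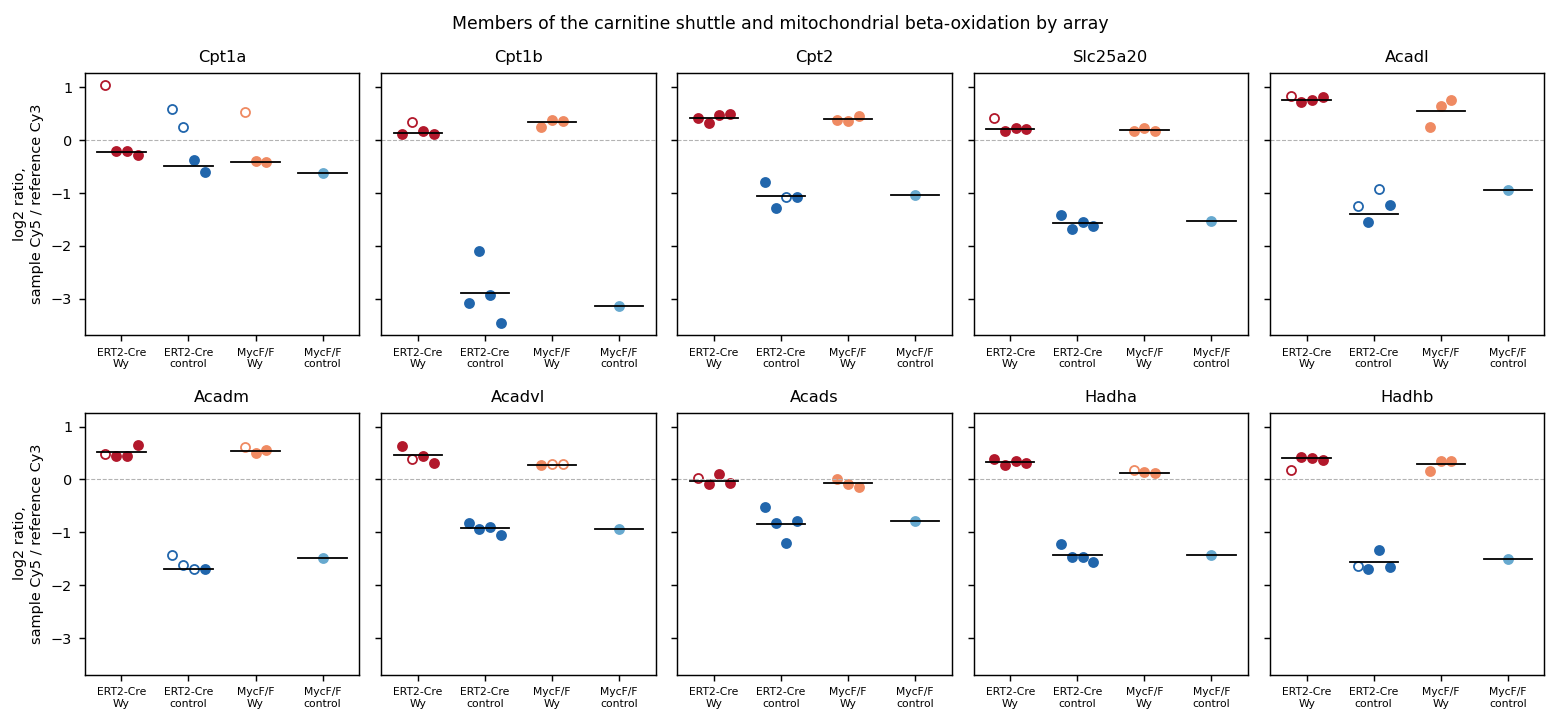
Log2 ratio of sample to pooled reference (y axis) of each member on each of the 12 arrays, by group (ERT2-Cre stands for MycF/F,ERT2-Cre). Filled points entered the fit, open points are spots marked as outliers and left out, and the black line is the mean of the filled points; the Wy-14643 arrays stand above the control arrays in every panel but that of Cpt1a, where the 4 open points of slide 1 stand above the filled points of their groups.

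The shuttle came first in size through Cpt1b, the muscle isoform of the entry enzyme. Its brighter probe read 0.11, 0.17 and 0.11 on 3 MycF/F,ERT2-Cre arrays with Wy-14643, against -3.07, -2.09, -2.93 and -3.47 on the 4 arrays with control diet. In MycF/F it read 0.26, 0.38 and 0.37 on Wy-14643, against -3.14 on control diet. The diets were far apart and the spread lay mainly in the control arrays, where the signal was weakest. Cpt1b rose by a log2 fold change of 3.02 in MycF/F,ERT2-Cre (SE 0.24, 8.11-fold, 95% interval 5.63 to 11.7, limma adjusted p = 8.83e-06). In MycF/F it rose by 3.48 (SE 0.36, limma adjusted p = 0.000202). Among the 2242 genes that rose in MycF/F,ERT2-Cre it ranked 25 by fold change. The other Cpt1b probe gave 2.46 in MycF/F,ERT2-Cre (SE 0.11, adjusted p = 5.76e-08 over all kept probes in limma) and 2.75 in MycF/F (SE 0.18, adjusted p = 6.97e-06); 3.55% of kept probes rose in MycF/F. The size depended on the processing. Without background correction Cpt1b gave 3.71 in MycF/F,ERT2-Cre and 4.01 in MycF/F. The deposited log ratios, which differ in background handling and in normalization together, gave 4.50 in MycF/F,ERT2-Cre and 4.67 in MycF/F, a fold more than 2 times as large.

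Because Cpt1b is the muscle isoform, muscle markers were read beside it. Of 10 markers 8 were kept. Of all genes tested in MycF/F,ERT2-Cre, 8.91% rose and 7.44% fell, and in MycF/F 3.34% rose and 3.22% fell. Of the 7 that could be compared in MycF/F,ERT2-Cre 0 rose and 1 fell in limma, namely Tnnt3, a subunit of fast skeletal troponin, by a log2 fold change of -1.35 (SE 0.16, adjusted p = 0.000189). Of 8 compared in MycF/F 0 rose and 2 fell, Tnnt3 by 1.83 (SE 0.25, limma adjusted p = 0.00107) and the fast myosin heavy chain Myh4 by 0.58 (SE 0.14, limma adjusted p = 0.024). Mb and Actn3 were well above background on 0 of 12 arrays and Ckm on 3. The mean log2 ratio of the kept muscle markers ran from -0.10 to 0.10 in MycF/F,ERT2-Cre fed Wy-14643, against 0.05 to 0.23 on control diet. It ran from -0.07 to 0.01 in MycF/F on Wy-14643, against 0.26 on control diet. Each mean was over the markers with a value on that array, and Myh6 had no control value in MycF/F,ERT2-Cre. None of the 4 kept adipocyte markers was called in either genotype. The largest change among them was that of Cidea, with 0.83 in MycF/F and 0.17 in MycF/F,ERT2-Cre.

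Cpt1a, the liver isoform and the step at which malonyl-CoA limits entry of fatty acids, did not pass on the probe that stands for it. Its brighter probe, a single spot, read -0.20, -0.20 and -0.28 on Wy-14643 in MycF/F,ERT2-Cre, against -0.38 and -0.59 on control diet, with the 3 arrays of slide 1 left out as outliers. In MycF/F it read -0.40 and -0.42 on Wy-14643, against -0.62 on control diet. The groups were narrowly apart within each genotype. The log2 fold change of 0.26 in MycF/F,ERT2-Cre (SE 0.11, 95% interval 0.02 to 0.51, limma adjusted p = 0.152) and that of 0.22 in MycF/F (SE 0.14, limma adjusted p = 0.556) did not pass the threshold.

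The left-out spots of this probe stood apart by slide. With outlier-marked spots kept they read 1.04 in MycF/F,ERT2-Cre fed Wy-14643, 0.58 and 0.25 for MycF/F,ERT2-Cre with control diet and 0.52 in MycF/F on Wy-14643, all above the 8 arrays of the other slides, so that the diets overlapped. The fold change with these spots was 0.13 in MycF/F,ERT2-Cre (limma adjusted p = 0.861), and with these spots and the slide as a block, an alternative chosen after seeing the data, it was 0.40 (limma adjusted p = 0.0191). The Cpt1a probe with 10 spots had a value on every array. It read 0.16, 0.26, 0.22 and 0.30 on Wy-14643 in MycF/F,ERT2-Cre, against -0.08, -0.50, -0.20 and -0.29 on control diet, with no overlap. It rose by a log2 fold change of 0.50 in MycF/F,ERT2-Cre (SE 0.09, 1.41-fold, limma adjusted p = 0.00185 over all kept probes, of which 9.38% rose). In MycF/F the same probe read 0.01, 0.05 and 0.06 on Wy-14643, against -0.37 on control diet, a difference of 0.41 (SE 0.15, adjusted p = 0.136) that did not pass. The mean over both probes gave 0.38 in MycF/F,ERT2-Cre and passed (limma adjusted p = 0.017).

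**Figure D2:**
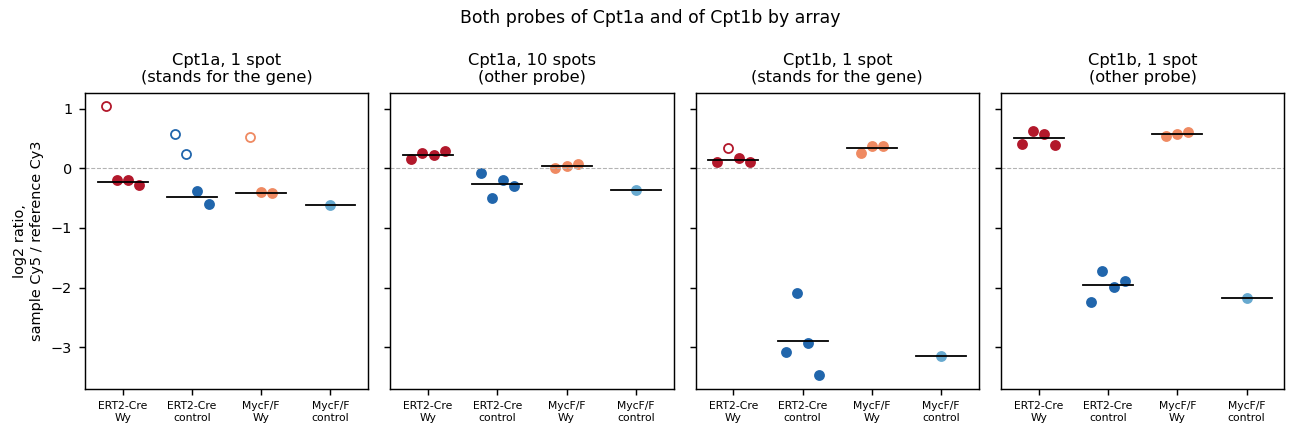
Log2 ratio of sample to pooled reference (y axis) by array and group for the 2 probes of Cpt1a and the 2 probes of Cpt1b, with filled points in the fit, open points marked as outliers and left out, and lines at the means of the filled points. The 10-spot Cpt1a probe shows a difference between diets of 0.50 in MycF/F,ERT2-Cre, and both Cpt1b probes show one of over 2 log2 units.

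The translocase Slc25a20 had the smallest SE of the set in MycF/F,ERT2-Cre. It read 0.18, 0.24 and 0.21 in MycF/F,ERT2-Cre fed Wy-14643, against -1.42, -1.68, -1.55 and -1.63 on control diet. Among MycF/F arrays it read 0.18, 0.22 and 0.17 on Wy-14643, against -1.52 on control diet. No array of one diet came near the other diet. Slc25a20 rose by a log2 fold change of 1.78 in MycF/F,ERT2-Cre (SE 0.08, 3.43-fold, 95% interval 3.03 to 3.88, limma adjusted p = 1.92e-07) and by 1.71 in MycF/F (SE 0.12, limma adjusted p = 2.17e-05).

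Cpt2, which releases the acyl group in the matrix, read 0.42, 0.32, 0.47 and 0.49 in MycF/F,ERT2-Cre fed Wy-14643, against -0.80, -1.28 and -1.08 on 3 control arrays. The MycF/F arrays read 0.39, 0.36 and 0.45 on Wy-14643, against -1.05 on control diet. The control array of MycF/F lay inside the range of the MycF/F,ERT2-Cre control arrays. Cpt2 rose by 1.48 in MycF/F,ERT2-Cre (SE 0.11, 2.79-fold, limma adjusted p = 4.54e-06) and by 1.45 in MycF/F (SE 0.16, limma adjusted p = 0.000349).

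All 4 acyl-CoA dehydrogenases rose in MycF/F,ERT2-Cre, and 3 of them in MycF/F. Acadm, the medium-chain enzyme, lost most values to outlier marks, and its level in MycF/F,ERT2-Cre was 0.44, 0.45 and 0.65 on Wy-14643, against -1.70 on the 1 control array left. For MycF/F the level was 0.51 and 0.57 on Wy-14643, against -1.48 on control diet. With the marked spots kept, the 4 Wy-14643 arrays of MycF/F,ERT2-Cre ran from 0.44 to 0.65 and the 4 control arrays from -1.71 to -1.43, so the diets were as far apart. Acadm rose by 2.21 in MycF/F,ERT2-Cre (SE 0.15, 4.63-fold, limma adjusted p = 6.69e-05, n = 3 and 1) and by 2.02 in MycF/F (SE 0.15, limma adjusted p = 0.000413, n = 2 and 1). With marked spots kept the change in MycF/F,ERT2-Cre was 2.11 (SE 0.08, limma adjusted p = 2.28e-08).

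Acadl, the long-chain enzyme, read 0.73, 0.76 and 0.82 in MycF/F,ERT2-Cre fed Wy-14643, against -1.55 and -1.23 on 2 control arrays. The MycF/F arrays read 0.24, 0.65 and 0.77 on Wy-14643, against -0.94 on control diet. The low Wy-14643 array of MycF/F was the one on slide 1. Acadl rose by 2.16 in MycF/F,ERT2-Cre (SE 0.16, 4.47-fold, limma adjusted p = 2.59e-05) and by 1.49 in MycF/F (SE 0.21, 2.81-fold, limma adjusted p = 0.00265).

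Acadvl, which takes the longest chains at the inner membrane, read 0.63, 0.45 and 0.31 in MycF/F,ERT2-Cre fed Wy-14643, against -0.82, -0.94, -0.89 and -1.05 on control diet. In MycF/F it rested on 1 array of each diet, 0.27 on Wy-14643 against -0.93 on control diet. The control arrays of both genotypes were close together. Acadvl rose by 1.39 in MycF/F,ERT2-Cre (SE 0.10, 2.62-fold, limma adjusted p = 2.04e-05). The fit also called it in MycF/F, by 1.20 (SE 0.19, limma adjusted p = 0.00495, n = 1 and 1), which assumes that each lone array has the spread found in the other groups.

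Acads, the short-chain enzyme, moved less. It read -0.09, 0.10 and -0.07 in MycF/F,ERT2-Cre fed Wy-14643, against -0.51, -0.82, -1.21 and -0.79 on control diet. In MycF/F it read 0.01, -0.08 and -0.15 on Wy-14643, against -0.78 on control diet. The diets did not overlap, and the control arrays of MycF/F,ERT2-Cre were spread more widely than the Wy-14643 arrays. Acads rose by 0.81 in MycF/F,ERT2-Cre (SE 0.14, 1.76-fold, limma adjusted p = 0.00193). The difference of 0.70 in MycF/F (SE 0.21, 95% interval 0.24 to 1.17, limma adjusted p = 0.0769) did not pass. It passed without slide 1 (0.66, adjusted p = 0.0356) and when the control replicate 1 or the control replicate 3 of MycF/F,ERT2-Cre was left out, which changes only the shared spread (limma adjusted p = 0.0335 and 0.0193).

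The subunits of the trifunctional protein moved by similar amounts. Hadha, which carries the hydratase and hydroxyacyl-CoA dehydrogenase activities, read 0.38, 0.28, 0.35 and 0.31 in MycF/F,ERT2-Cre fed Wy-14643, against -1.22, -1.46, -1.46 and -1.55 on control diet. The MycF/F arrays read 0.14 and 0.12 on Wy-14643, against -1.43 on control diet. Within a diet the arrays were close together and the diets far apart. Hadha rose by 1.75 in MycF/F,ERT2-Cre (SE 0.08, 3.37-fold, limma adjusted p = 2.1e-07) and by 1.56 in MycF/F (SE 0.14, limma adjusted p = 9.39e-05).

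Hadhb, the thiolase subunit, read 0.42, 0.41 and 0.37 in MycF/F,ERT2-Cre fed Wy-14643, against -1.70, -1.34 and -1.66 on 3 control arrays. Among MycF/F arrays it read 0.15, 0.36 and 0.35 on Wy-14643, against -1.50 on control diet. The lowest of the Wy-14643 arrays was again that of MycF/F on slide 1. Hadhb rose by 1.96 in MycF/F,ERT2-Cre (SE 0.11, 3.90-fold, limma adjusted p = 1.73e-06) and by 1.79 in MycF/F (SE 0.16, limma adjusted p = 0.000115). The interval of the fold was 3.28 to 4.62 for Hadhb and 2.97 to 3.82 for Hadha in MycF/F,ERT2-Cre, and the intervals overlap.

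**Figure D3:**
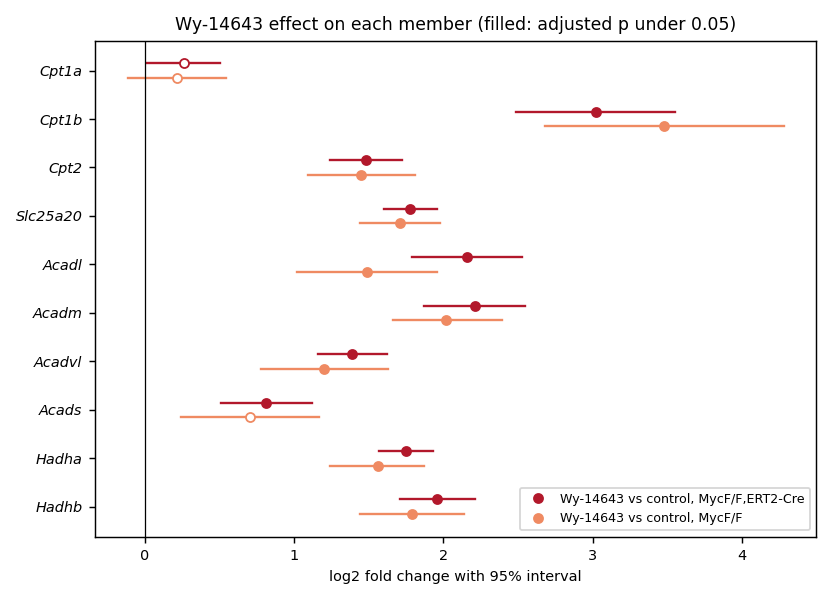
Log2 fold change of Wy-14643 over control diet (x axis) with its 95% interval for each member, in MycF/F,ERT2-Cre (upper mark of each pair) and in MycF/F (lower mark). Filled marks passed an adjusted p under 0.05, which leaves Cpt1a open in both genotypes and Acads open in MycF/F, and Cpt1b lies farthest right.

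Slides were scanned at different times, so slide and scan are 1 factor, and each slide held both diets. Within slides, with marked spots left out, the Wy-14643 arrays of MycF/F,ERT2-Cre were higher than the control arrays for all 4 members measured on slide 1 (differences of 1.46 to 2.70), all 5 on slide 2 (0.18 to 1.76) and all 10 on slide 3 (0.35 to 3.61). In MycF/F, slide 2 alone held both diets, and there all 9 measured members were higher on Wy-14643, by 0.23 to 3.52. With marked spots kept, 10 of 10 members were higher on Wy-14643 within every slide in MycF/F,ERT2-Cre. The medians were 1.82, 1.69 and 1.88 on slides 1, 2 and 3. Within a slide each compared group had 1 or 2 arrays, and the share over all genes was not computed for these counts. When the Cy5 signal was used alone, without the pooled reference, Acadl (1.22, limma adjusted p = 0.338), Acads (0.94, limma adjusted p = 0.0861) and Hadhb (1.74, limma adjusted p = 0.0636) were no longer called in MycF/F,ERT2-Cre. By Cy5 alone 6 of 10 members were called in MycF/F,ERT2-Cre, where 5.11% of all genes were, and 4 of 10 in MycF/F, where 1.03% were.

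The members' levels varied together over the arrays. The Pearson correlation of each member with the median of the others was 0.93 to 0.996 over 7 to 11 arrays for 9 members and 0.764 over 8 arrays for Cpt1a. These arrays fall into 2 diets, so the correlations mainly describe the separation of the diets and carry no test. The median of the members was 0.30 to 0.40 in MycF/F,ERT2-Cre fed Wy-14643, against -1.51 to -1.02 on control diet. It was 0.24 to 0.36 in MycF/F on Wy-14643, against -1.24 on control diet. Each median was over the members with a value on that array, so arrays rest on different members. On MycF/F,ERT2-Cre Wy-14643 replicate 1, 6 of the 12 member probes had no value. Outside the set, and among 11644 genes with a value on all 12 arrays, the pattern most like this median was that of Acaa1a, a peroxisomal thiolase (r = 0.9965 over 12 arrays). It was followed by Grhpr, glyoxylate and hydroxypyruvate reductase (0.9931), Pex11a, a factor of peroxisome division (0.9906), Mrpl51, a protein of the mitochondrial ribosome (0.9903), and Acot8, a peroxisomal acyl-CoA thioesterase (0.9899). Their log2 fold changes in MycF/F,ERT2-Cre ranged from 0.52 for Mrpl51 to 3.18 for Acaa1a, whose probe may also read its close copy Acaa1b.

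No member passed the test between the genotypes. On Wy-14643, 0 of 10 members were called between MycF/F,ERT2-Cre and MycF/F in limma, where 0.0675% of 25171 genes were called (17 genes), and 0 members had an unadjusted p under 0.05, where 8.47% of genes did. The differences ran from -0.20 for Cpt1b to 0.22 for Acadl (SE 0.26 and 0.15, limma adjusted p = 0.964 and 0.832). All 10 intervals held 0, and over the set they reached from -0.77 to 0.55, so all 10 lay within a 2-fold difference either way. The smallest adjusted p among the members was that of Hadha, which read 0.38, 0.28, 0.35 and 0.31 in MycF/F,ERT2-Cre, against 0.14 and 0.12 in MycF/F, on Wy-14643 (difference 0.20, SE 0.10, limma adjusted p = 0.673).

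On control diet 0 of 10 members were called between MycF/F,ERT2-Cre and MycF/F in limma, where 0% of 24901 genes were called. An unadjusted p under 0.05 was reached by 0 members and 1.77% of genes, and with Cy5 alone 4 genes were called. This comparison has 1 pooled MycF/F array, and its intervals for the members reached from -0.95 to 1.03. The lowest difference was that of Acadl, which read -1.55 and -1.23 in MycF/F,ERT2-Cre, against -0.94 in MycF/F (difference -0.46, SE 0.22, limma adjusted p = 1). With the marked spots kept, the MycF/F,ERT2-Cre control array of slide 2 read -0.92 and the MycF/F control array of the same slide -0.94.

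The response to the diet itself was compared between genotypes as the effect in MycF/F,ERT2-Cre minus the effect in MycF/F. Here 0 of 10 members were called in limma, where 0% of 24877 genes were called, and 1 member had an unadjusted p under 0.05, where 2.17% of genes did. That member was Acadl, with a difference of 0.67 (SE 0.26, 95% interval 0.07 to 1.27, limma adjusted p = 1). The difference was 0.35 without slide 1 (limma adjusted p = 0.999) and 0.56 with marked spots kept (limma adjusted p = 1). Of the other 9 members the lowest was Cpt1b at -0.46 (SE 0.44, 95% interval -1.42 to 0.50), an interval that allows a response more than 2-fold smaller in MycF/F,ERT2-Cre.

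**Figure D4:**
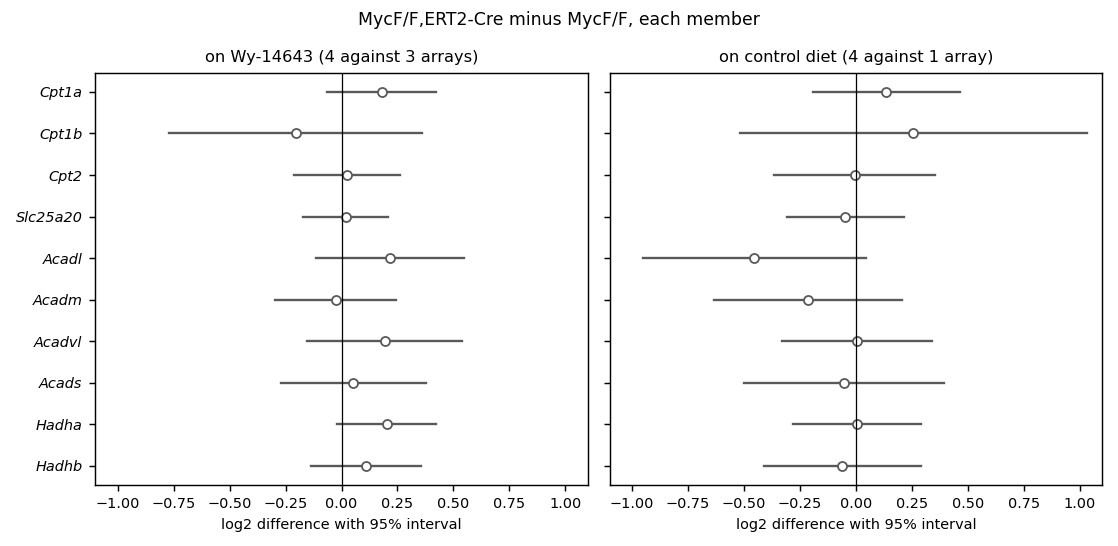
Log2 difference of MycF/F,ERT2-Cre minus MycF/F (x axis) with its 95% interval for each member, on Wy-14643 (left) and on control diet (right). Open marks did not pass the test, and all 20 intervals cross 0. Those on control diet, where MycF/F had 1 array, are wider except for Acadvl, which had 1 MycF/F array on each diet.

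Genes that feed the shuttle and the oxidation spiral were read from lists of their own. Over all genes tested, 8.91% rose and 7.44% fell in MycF/F,ERT2-Cre, and 3.34% rose and 3.22% fell in MycF/F. Of the genes that supply carnitine or transfer acetyl groups to it, 3 of 6 tested rose in MycF/F,ERT2-Cre and 0 fell, and the same counts held in MycF/F. In MycF/F,ERT2-Cre the carnitine transporter Slc22a21 rose by 2.98 (SE 0.13, limma adjusted p = 2.75e-07), Crat, carnitine acetyltransferase, by 2.52 (SE 0.17) and Aldh9a1, an enzyme of carnitine synthesis, by 0.81 (SE 0.10). Cpt1c, the brain isoform of the entry enzyme, gave -0.10 (SE 0.07, limma adjusted p = 0.402). The carnitine transporter Slc22a5 had no control value on its brighter probe, and its other probe, named here after its value was seen, gave 3.08 (SE 0.13, limma adjusted p = 2.03e-06 over all kept probes).

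Of the long-chain acyl-CoA synthetases, which make the substrate of Cpt1, 4 of 5 rose in MycF/F,ERT2-Cre and 3 of 4 in MycF/F. Acsl1, the main form in liver, rose by 2.38 in MycF/F,ERT2-Cre (SE 0.12, limma adjusted p = 3.27e-07) and by 2.25 in MycF/F (SE 0.18), and all 3 of its probes gave at least 1.85 in MycF/F,ERT2-Cre. Acsl5 rose by 1.50, Acsl4 by 0.78 and Acsl3 by 0.72 in MycF/F,ERT2-Cre.

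Of the other matrix enzymes 6 of 11 rose and 1 fell in MycF/F,ERT2-Cre, and 5 rose and 1 fell in MycF/F. The enoyl-CoA isomerases Eci1 and Eci2, which prepare unsaturated chains, rose by 1.83 (SE 0.10) and 1.65 (SE 0.12) in MycF/F,ERT2-Cre. The acyl-CoA dehydrogenase Acad11 rose by 1.53 on 1 array with Wy-14643 and 3 with control diet. Hsd17b10, which acts on short and branched chains, rose by 1.16 and the thiolase Acaa2 by 0.98. Acadsb, the dehydrogenase of short branched chains from isoleucine, fell by 0.93 in MycF/F,ERT2-Cre (limma adjusted p = 0.000172) and by 0.96 in MycF/F (limma adjusted p = 0.0036). Hadh, the enzyme for the third step with shorter chains, had no value left once spots marked as outliers were removed.

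Downstream, both tested subunits of the electron transfer flavoprotein rose in MycF/F,ERT2-Cre, Etfb by 0.91 (SE 0.12) and Etfa by 0.53 (SE 0.10), and both rose in MycF/F. The monocarboxylate transporter Slc16a1 rose by 2.05 in MycF/F,ERT2-Cre (SE 0.10, limma adjusted p = 6.49e-07, n = 3 and 3 after spots marked as outliers were removed) and by 2.26 in MycF/F (SE 0.14, limma adjusted p = 1.85e-05). The mitochondrial thiolase Acat1 rose by 1.42 in MycF/F,ERT2-Cre (SE 0.10, limma adjusted p = 1.54e-06) and by 1.3 in MycF/F (SE 0.16, limma adjusted p = 0.000407).

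Of 10 regulators 4 rose and 2 fell in MycF/F,ERT2-Cre, where 8.91% of all genes rose and 7.44% fell. Their median log2 fold change was 0.24 in MycF/F,ERT2-Cre and -0.06 in MycF/F. Pdk4, which restrains glucose oxidation, rose by 2.67 on 1 array with Wy-14643 and 3 with control diet (SE 0.21, limma adjusted p = 0.000385, with the spread of the lone array taken from the other groups). Acacb, which makes the malonyl-CoA that inhibits Cpt1, rose by 0.97 and Mlycd, which degrades malonyl-CoA, by 0.94, while the coactivator Ppargc1b rose by 0.63. The receptor partner Rxra fell by 0.38 (limma adjusted p = 0.0179), although its other probe gave 0.21 (limma adjusted p = 0.306). The mitochondrial deacylase Sirt3 fell by 0.24 (limma adjusted p = 0.0462). Against the 1 control array of MycF/F, Acacb (0.80), Ppargc1b (0.76), Rxra (-0.54) and Sirt3 (-0.21) did not pass. Mlycd gave 1.06 in MycF/F, and Pdk4 had no estimate there. Ppara, the receptor of Wy-14643, gave 0.10 in MycF/F,ERT2-Cre (SE 0.10, limma adjusted p = 0.598) and -0.06 in MycF/F (SE 0.17, limma adjusted p = 0.945). Between genotypes 0 genes of these 5 lists were called on either diet.

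**Figure D5:**
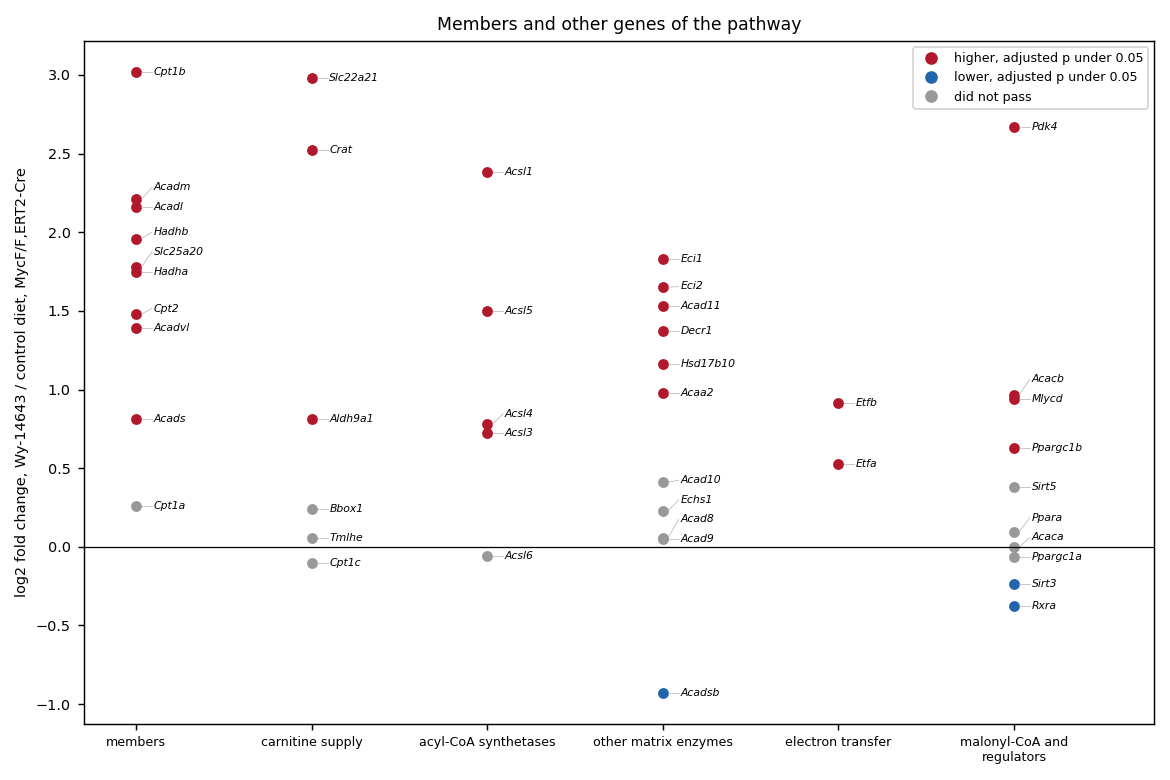
Log2 fold change of Wy-14643 over control diet in MycF/F,ERT2-Cre (y axis) for the members and the genes of 5 other lists of the pathway (x axis), 1 point per gene tested. Red points rose and blue points fell at an adjusted p under 0.05 in limma and grey points did not pass; Cpt1b at 3.02 and Slc22a21 at 2.98 stand at the top and Acadsb at -0.93 at the bottom.

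Markers of liver cell types also moved with the diet, and their part in the members' results was not tested. In MycF/F,ERT2-Cre 3 of 4 measured hepatocyte markers fell on Wy-14643 (median log2 fold change -1.08). So did 6 of 8 Kupffer cell, 3 of 5 stellate cell, 2 of 5 endothelial and 2 of 5 lymphocyte markers. Of 5 cholangiocyte markers 1 rose and 1 fell, where 8.91% of all genes rose and 7.44% fell. In MycF/F 3.34% of all genes rose and 3.22% fell. There 3 of 4 hepatocyte (median -1.1), 3 of 7 Kupffer cell and 1 of 5 endothelial markers fell. Of the stellate cell, lymphocyte and cholangiocyte markers 0 of 5 each fell, and no marker of these lists rose. As over all genes tested, the difference between the diet effects of the genotypes was called in limma for none of these markers. The mean level of the Kupffer cell list was -0.39 to -0.20 in MycF/F,ERT2-Cre fed Wy-14643, against 0.16 to 0.92 on control diet. The mean level of the hepatocyte list was -0.40 to 0.30 in MycF/F,ERT2-Cre fed Wy-14643, against 0.89 to 1.39 on control diet. Both lists were averaged over the markers with a value on each array, so arrays rest on different markers.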

How the data were processed

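Whole-liver RNA was amplified and labelled with Cy5 and hybridised with a Cy3-labelled pooled liver reference on 2-colour Agilent arrays, per the labels' protocols. The deposited intensity values are median spot and local background signals written by the scanner software (Agilent Feature Extraction, version 11.0.1.1), per the file headers. The log10 ratios of Cy5 to Cy3 in the deposited files come from that software too, per the file headers, and served as an alternative. In R 4.3.3 with limma 3.58.1, signals were corrected with normexp (offset 50) and log2 ratios loess-normalized within each array. Control spots and spots marked as outliers were left out, spots of 1 probe were averaged, and probes well above background on at least 3 of 12 arrays were kept. Probe accessions were turned into symbols with a RefSeq gene table (GRCm38.p6). The brightest kept probe stood for each gene, and probes could not be placed on exons because their sequences were not used here.

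One linear model with a mean for each of 4 groups was fitted to all genes (8 residual degrees of freedom before missing values), with empirical Bayes and Benjamini-Hochberg adjustment per comparison, called at an adjusted p under 0.05. The procedure was tested on simulated data. All members and their probes were named; of each pathway list up to 3 called genes with the highest and 3 with the lowest fold change, with Ppara and Cpt1c; and the 5 genes whose pattern was most like the members' median. Results of 1 further pathway list are not reported in full here. Members and lists were chosen with earlier results of these data known. Alternatives were other background corrections and normalizations, Cy5 alone, other filters, kept outlier spots, means over probes, slide or replicate blocks, and leaving out slide 1 or each array. The number of arrays limits the precision.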

Additional observations from a re-analysis of the deposited data

How the results depend on the processing

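In MycF/F,ERT2-Cre the count of members called on Wy-14643 was within 1.5 times of 9 in all alternatives run, and 8 to 9 when 1 array was left out; it was 8 without the control replicate 4, which leaves Acadm no control value. In MycF/F the count of 8 became 4 with Cy5 alone and 3 with Cy5 alone and outlier spots kept, an alternative chosen after seeing the data, and was 7 to 9 when 1 array was left out, 7 without MycF/F Wy-14643 replicate 1, which leaves Acadvl no value. No member was called between genotypes in any alternative (0 to 0 when 1 array was left out), and no called value changed sign; the uncalled Cpt1a value in MycF/F was -0.14 with Cy5 alone. Why Cy5 alone calls fewer members was not tested.

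Over all genes, calls in MycF/F,ERT2-Cre fell to 1287 and 1334 with Cy5 alone (without and with outlier spots), against 4114. In MycF/F they were 1054 with the deposited log ratios, 256 and 271 with Cy5 alone and 2830 without slide 1, against 1635. Between genotypes on Wy-14643, against 17, calls were 0 with the deposited log ratios, with Cy5 alone and with the replicate block, 27 with means over probes, 33 with the slide as a fixed and 60 as a random block, 41 with outlier spots kept, 39 with these and the slide block, 107 without slide 1, and 0 to 27 when 1 array was left out; on control diet, against 0, they were 4 with Cy5 alone and 2 without slide 1.

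Replicate numbers are shared across groups, but same-numbered arrays did not all deviate together (r from -0.07 to 0.41, over 0.1 in 7 of 10 pairs). Of the pairs with unlike numbers 9 of 30 were over 0.1. Many same-numbered pairs also shared a slide, and a pair with unlike numbers on 1 slide reached 0.379, so number and slide are partly confounded. Of 11 arrays 4 correlated best with their own number. Under the replicate block Acads in MycF/F was called at 0.90 (limma adjusted p = 0.0392). The median Cy5 signal over background was 2.64 to 4.82, and its effect on the size of changes was not tested.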
